A study of Homo sapiens with 9 samples.

Results

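PEG3 and other imprinted genes were followed in LNCaP, a human prostate cancer cell line, after recombinant NRG1, a soluble ligand of the receptor HER3. Imprinted genes are transcribed mainly from the copy inherited from one parent, and the silent copy is usually marked by DNA methylation laid down in the germ line. They tend to lie in clusters under a shared control region, and many of them regulate growth. PEG3 is transcribed from the paternal copy and encodes a zinc finger protein that binds DNA, and its loss or silencing has been described in several tumour types. The members were chosen by gene name: PEG3, ZIM2, PEG10, SGCE, MEST, SNRPN, NDN, GNAS, IGF2R and DLK1. Of these 10, 9 were among the 37351 genes of the count table, all 9 passed the filter on low counts, and DLK1 was not analysed here. PEG3 was selected on its fall in these same libraries, so its values are given as a description, with no test. A wider list of 67 imprinted genes was read beside the members, of which 60 were in the table and 47 were among the 19250 genes tested. RNA reads were not assigned to a parental copy, so every level is the sum of both.

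The 3 groups were LNCaP cells at 0, 12 and 24 h, with 3 libraries each. All cells had been held in medium without serum and calcium beforehand, and cells of the later times had 15 ng/mL rNRG1. Libraries of cells given buffer alone for 12 or 24 h were not analysed here, so NRG1 and the time in this medium cannot be told apart. In bulk RNA, fewer cells that express a gene and less RNA per cell cannot be told apart either. Both comparisons with 0 h share the 0 h libraries.

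Libraries held 47016302 to 60985825 counts, and log2 CPM of replicates correlated across genes at 0.991 to 0.993. CPM is a gene's counts scaled to a library of 1000000 reads. All 9 prostate luminal markers were tested, among them FOLH1 at 1608 CPM and KLK3 at 994 CPM at 0 h. Of the 12 markers of fibroblasts, endothelium and leukocytes, 5 were tested. COL1A1 had 24.6 CPM and VWF 13.1 CPM at 0 h, while PTPRC, CD3E, DCN and COL1A2 were under the filter. VWF, an endothelial marker, was called lower at 12 h (-0.58 on the log2 scale) and at 24 h (-0.83, edgeR adjusted p = 3.07e-10). Of the 3 tested fibroblast markers, COL3A1 was higher at 12 and 24 h, from 0.567 to 1.13 and 1.43 CPM (edgeR adjusted p = 0.00900 and 0.000320), LUM was higher at 24 h, from 1.03 to 1.52 CPM (edgeR adjusted p = 0.0479), and COL1A1 was not called. CD68, the one tested leukocyte marker, was not called. The part of such cells in the results was not tested.

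To show what kind of DNA lies in front of these genes, the 250 bases upstream of a start site are printed for 4 of them, from RefSeq (GRCh38.p14), 5′ to 3′ on the gene's strand. The capitals mark CG pairs, the kind of site at which imprints are methylated. Whether these windows carry an imprint was not tested. IGF2R and GRB10 were lower after NRG1, NDN was not called, and DDC lies beside GRB10 and was lower with it. PEG3, MIMT1, ZIM2, PEG10, SGCE and PHLDA2 are named only. The windows are chr6:159968832-159969081 on the plus strand for IGF2R, chr7:50793454-50793703 on the minus strand for GRB10, chr15:23687306-23687555 on the minus strand for NDN and chr7:50565406-50565655 on the minus strand for DDC.
IGF2R: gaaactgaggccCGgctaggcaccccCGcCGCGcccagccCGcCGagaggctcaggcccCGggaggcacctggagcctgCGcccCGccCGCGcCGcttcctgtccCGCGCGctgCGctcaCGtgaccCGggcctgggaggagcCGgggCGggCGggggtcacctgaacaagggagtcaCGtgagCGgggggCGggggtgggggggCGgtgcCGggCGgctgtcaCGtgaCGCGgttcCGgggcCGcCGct
GRB10: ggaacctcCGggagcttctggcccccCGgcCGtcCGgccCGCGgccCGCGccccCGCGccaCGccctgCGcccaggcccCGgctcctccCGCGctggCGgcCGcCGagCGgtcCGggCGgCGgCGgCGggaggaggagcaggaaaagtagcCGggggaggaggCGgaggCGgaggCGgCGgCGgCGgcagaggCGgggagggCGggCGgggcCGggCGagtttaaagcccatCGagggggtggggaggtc
NDN: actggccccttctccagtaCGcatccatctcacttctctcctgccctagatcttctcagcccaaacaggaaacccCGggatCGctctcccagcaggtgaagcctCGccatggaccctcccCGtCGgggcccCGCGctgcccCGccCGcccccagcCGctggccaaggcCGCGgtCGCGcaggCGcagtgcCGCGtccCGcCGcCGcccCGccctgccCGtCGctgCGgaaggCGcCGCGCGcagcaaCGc
DDC: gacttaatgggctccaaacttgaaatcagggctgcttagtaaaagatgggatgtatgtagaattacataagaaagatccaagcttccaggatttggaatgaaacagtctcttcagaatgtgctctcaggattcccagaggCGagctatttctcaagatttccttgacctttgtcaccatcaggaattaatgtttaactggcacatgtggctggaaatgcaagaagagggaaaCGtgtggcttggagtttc
These windows held 33, 37, 30 and 2 CG pairs, respectively. Of 35116 promoter windows of that length, 8.15% had at least as many as IGF2R, 12.4% at least as many as NDN, 3.998% at least as many as GRB10 and 85.3% at least as many as DDC. The median window held 11. GRB10 has 5 start sites in the table, whose windows held 2, 3, 19, 37 and 40 CG pairs, and the one shown lies at the 5′ end of the gene. The other DDC window held 3.

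PEG3 (ENSG00000198300.14, chromosome 19, 56810077 to 56840728, GRCh38, minus strand) fell at each step. Its level was 988, 932 and 971 CPM at 0 h, 365, 353 and 395 CPM at 12 h, and 180, 186 and 204 CPM at 24 h. No library of one time overlapped a library of another. The means were 964 ± 29.0, 371 ± 21.8 and 190 ± 12.5 CPM (SD, n = 3 each), which left 38.5% of the 0 h level at 12 h and 19.7% at 24 h. In the fit, PEG3 changed on the log2 scale by -1.38 (SE 0.044) at 12 h and by -2.34 (SE 0.046) at 24 h, with -0.97 (SE 0.044) from 12 h to 24 h. Over 15 other ways of fitting the data, the PEG3 values ranged from -1.42 to -1.34 at 12 h and from -2.40 to -2.30 at 24 h.

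Mean PEG3 CPM dropped by 774 between 0 and 24 h, the second largest loss among tested genes, after MT-RNR2, a mitochondrial ribosomal RNA. Per kb of annotated exon, PEG3 went from 98.6 to 37.98 to 19.4 CPM. On this scale per length it ranked first of 47 tested imprinted genes at 0 h, 4th at 12 h and 7th at 24 h. These ranks depend on the annotated length, the union of all exons (9769 bases for PEG3 and 22221 for GNAS). In CPM without length, GNAS stood above PEG3 at 0 h, with 1106 against 964. Among all 19215 tested genes with a known exon length, the rank of PEG3 per kb moved from 341 to 1056 to 2217. By log2 fold change against 0 h, counted from the lowest of the 19250 tested genes, PEG3 ranked 97 at 12 h and 7 at 24 h.

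The nearest tested gene that does not overlap PEG3 fell at both steps. MIMT1 (ENSG00000268654.2, chromosome 19, 56840866 to 56848556, plus strand) is a non-coding RNA that is also transcribed from the paternal copy, and 137 bases separate it from the PEG3 start. MIMT1 had 3.08, 2.83 and 2.69 CPM at 0 h, 1.46, 1.25 and 1.67 CPM at 12 h, and 0.639, 0.717 and 0.864 CPM at 24 h. The 3 times did not overlap. Its log2 fold change was -0.97 at 12 h (SE 0.18, edgeR adjusted p = 8.99e-05), -1.95 at 24 h (SE 0.19, edgeR adjusted p = 8.30e-10) and -0.97 from 12 h to 24 h (SE 0.21, edgeR adjusted p = 0.00250). It held 30 to 191 counts per library. MIMT1 counts were taken without a stated strand setting.

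ZIM2, a zinc finger gene that shares its first exons with PEG3, was near the lower limit of what the depth shows. It had 0.710, 0.466 and 0.428 CPM at 0 h, 0.408, 0.435 and 0.434 CPM at 12 h, and 0.107, 0.478 and 0.230 CPM at 24 h, from 5 to 44 counts. The 0 and 24 h libraries of ZIM2 overlapped, and its log2 fold change of -0.95 at 24 h (SE 0.41) was not called (edgeR adjusted p = 0.105). Without 24 h replicate 2 the ZIM2 value was -1.64 and was called (edgeR adjusted p = 0.0172). The exons of ZIM2 share 1264 bases with those of PEG3, which had 258601 counts in all against 205, so the split of reads between them is uncertain. AC006115.7, which overlaps PEG3 on the other strand, had fitted values of -1.05 (12 h) and -1.20 (24 h) on the log2 scale and was not called (edgeR adjusted p = 0.104 and 0.0583). USP29, a further imprinted gene of this cluster, had 3 counts over all libraries.

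**Figure D1:**
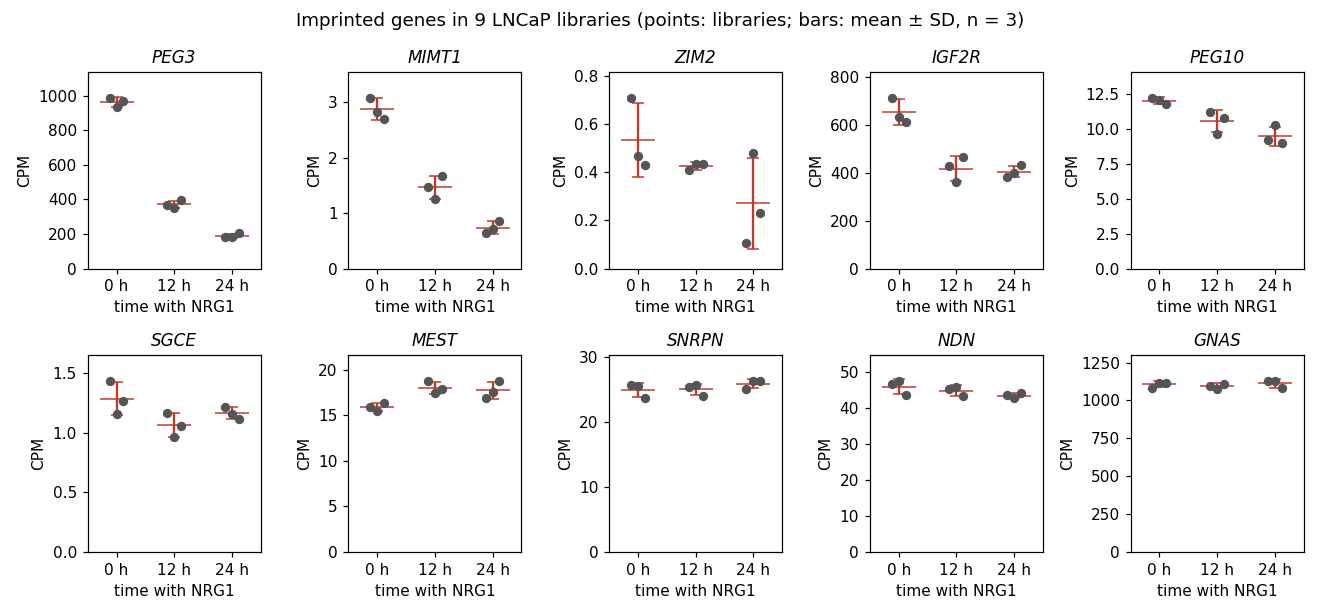
CPM (linear axes from 0) of the members and MIMT1 in each library at 0, 12 and 24 h. Points are libraries, and the red lines are the mean and SD of 3. PEG3 and MIMT1 step down at both times, IGF2R steps down at 12 h (654 to 418 CPM) and stays near that level (406 CPM), and GNAS, NDN and SNRPN were not called.

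Away from PEG3 and MIMT1, most genes around PEG3 changed by less. The sparsely counted SLC25A36P1 fell further than MIMT1 at 24 h (-2.18 against -1.95 on the log2 scale). Within 1 Mb of PEG3, 67 other genes were tested. At 12 h, 12 were lower and 1 was higher at an edgeR adjusted p of at most 0.05, where 8.16% of all tested genes were lower and 10.6% higher. At 24 h, 20 of the 67 were lower and 0 higher, against 9.48% lower and 11.6% higher among all tested genes. Their median log2 fold change was -0.19 at 12 h and -0.18 at 24 h, against -0.0084 and -0.0068 over all tested genes.

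Most of these called falls were under 1.5-fold. With a fold change of at least 1.5 as well, 1 of the 67 was lower at 12 h, MIMT1, and 5 were lower at 24 h, where the shares of all tested genes were 1.38% and 1.78%. The 5 were MIMT1, ZNF552 (-0.59), ZNF582-DT (-0.67), ZNF460-AS1 (-0.82) and SLC25A36P1 (-2.18, at 0.184 CPM at 0 h). None was higher by that fold, where 0.992% of all tested genes were higher at 12 h and 1.53% at 24 h. From 12 h to 24 h, MIMT1 and ZNF552 were lower and none was higher, against 3.05% lower and 3.03% higher among all tested genes. Of this pair MIMT1 alone passed the fold, against 0.203% of all tested genes lower and 0.249% higher.

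Many zinc finger genes lie in this stretch of chromosome 19. The 6 called genes next nearest to PEG3 after MIMT1, chosen after their values were seen, were ZNF71, ZNF470, ZFP28, ZNF471, ZNF667-AS1 and ZNF264. At 24 h their log2 fold changes ran from -0.42 (ZFP28, 26.03 to 19.4 CPM) to -0.24 (ZNF71, 15.4 to 13.1 CPM).

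Among the called members other than PEG3, IGF2R fell most. It encodes the receptor that takes mannose 6-phosphate proteins and IGF2 to lysosomes, and it is imprinted in mice but mostly expressed from both copies in people. IGF2R (ENSG00000197081.16, chromosome 6, 159969082 to 160113507, plus strand) had 716, 633 and 612 CPM at 0 h, 428, 361 and 465 CPM at 12 h, and 385, 400 and 433 CPM at 24 h. All 0 h libraries lay above all later ones, and the 12 and 24 h libraries overlapped. Its log2 fold change was -0.65 at 12 h (SE 0.11, edgeR adjusted p = 0.00786) and -0.69 at 24 h (SE 0.11, edgeR adjusted p = 0.00519). From 12 h to 24 h the IGF2R value was -0.04 (SE 0.11, edgeR adjusted p = 0.900), where PEG3 had -0.97.

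The spread of IGF2R between replicates moved with other genes. At each time the library with the most IGF2R was also the one with the most KCNQ1OT1 and SNHG14, namely replicate 1 at 0 h and replicate 3 at 12 and 24 h. KCNQ1OT1, a long imprinted non-coding RNA, had 809 counts in 0 h replicate 1 against 383 and 461 in the other 0 h libraries. Without 0 h replicate 1, IGF2R was still called lower, by -0.57 on the log2 scale at 12 h (edgeR adjusted p = 0.0254) and by -0.61 at 24 h (edgeR adjusted p = 0.0167). These genes were chosen after their values were seen, and what they share was not tested.

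PEG10 and SGCE start head to head on chromosome 7 and are both paternally expressed. PEG10, a gene derived from a retrotransposon, had 12.2, 12.0 and 11.7 CPM at 0 h, 11.2, 9.65 and 10.7 CPM at 12 h, and 9.21, 10.2 and 8.97 CPM at 24 h. All 0 h libraries lay above the rest. Its log2 fold change of -0.34 at 24 h was called (SE 0.078, edgeR adjusted p = 0.00119), and the -0.19 at 12 h was not (SE 0.077, edgeR adjusted p = 0.0855). SGCE, a membrane protein of the sarcoglycan family, had 1.29 ± 0.141, 1.06 ± 0.101 and 1.16 ± 0.0507 CPM (SD, n = 3 each) and was not called at any time. The exons of this pair share 219 bases, so a part of their reads is uncertain.

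MEST, which encodes a protein of the hydrolase fold family, was the one member called higher. MEST had 15.9, 15.5 and 16.3 CPM at 0 h, 18.7, 17.4 and 17.9 CPM at 12 h, and 16.9, 17.6 and 18.8 CPM at 24 h. All later libraries lay above all 0 h libraries. Its log2 fold change was 0.18 at 12 h (SE 0.061, edgeR adjusted p = 0.0340) and 0.16 at 24 h (SE 0.061, edgeR adjusted p = 0.0569). The 12 h call was lost with no scaling factor (edgeR adjusted p = 0.0553) and without 0 h replicate 1 or 2 or 12 h replicate 1 or 3 (edgeR adjusted p = 0.0624 to 0.152). MEST shares 228 exon bases with COPG2, its neighbour on the other strand with 3.45 times its counts, and COPG2 was higher by 0.12 at 24 h (edgeR adjusted p = 0.0330), a call that was lost without 0 h replicate 1 or 2 or 24 h replicate 1 or 2, and with every gene that had a read (edgeR adjusted p = 0.0635).

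SNRPN, NDN and GNAS were not called in any comparison. SNRPN, which encodes a protein of the splicing machinery, had 24.9 ± 1.09, 25.0 ± 0.844 and 25.8 ± 0.709 CPM, with log2 fold changes of 0.01 and 0.06 (SE 0.052 each). NDN, a member of the MAGE family that restrains cell growth, had 46.0 ± 2.11, 44.9 ± 1.43 and 43.5 ± 0.765 CPM, with -0.03 and -0.08 (SE 0.043 each). GNAS encodes the stimulatory G protein alpha subunit and stood at 1106 ± 20.0, 1096 ± 16.3 and 1112 ± 27.7 CPM, with -0.01 and 0.01 (SE 0.030 each). Replicates of all times overlapped for these 3 genes (SD, n = 3 each), and their edgeR adjusted p-values against 0 h lay between 0.222 and 0.949. SNRPN shares exon bases with SNURF and SNHG14, so its reads are in part uncertain.

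Among the 8 tested members other than PEG3, 1 was lower and 1 higher at 12 h, 2 were lower and 0 higher at 24 h, and 0 were called from 12 h to 24 h in edgeR. The shares of all tested genes were 8.16% lower and 10.6% higher at 12 h, and 9.48% lower and 11.6% higher at 24 h. From 12 h to 24 h they were 3.05% and 3.03%. At an unadjusted p under 0.05 the count of these members from 12 h to 24 h was also 0, and DESeq2 called 0. The median log2 fold change of these 8 was -0.11 at both 12 and 24 h, against -0.0084 and -0.0068 over all tested genes.

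The wider list also held called genes of both directions. Of 46 tested imprinted genes other than PEG3, 9 were lower and 4 higher at 12 h, where 8.16% of all tested genes were lower and 10.6% higher. At 24 h, 9 were lower and 5 higher, where these shares were 9.48% and 11.6%. With a fold change of at least 1.5 the counts were 7 lower and 1 higher at both times, against 1.38% lower and 0.992% higher at 12 h and 1.78% and 1.53% at 24 h among all tested genes. The median log2 fold change was -0.071 at 12 h and 0.0085 at 24 h, against -0.0084 and -0.0068 over all tested genes. From 12 h to 24 h, 4 were lower and 1 was higher, against 3.05% and 3.03% of all tested genes. By that fold 2 were lower, against 0.203%.

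Split by the parental copy known to be active, each class held called genes of both directions at 12 h. Of 21 tested paternally expressed genes other than PEG3, 3 were lower and 1 higher at 12 h, and 3 lower and 0 higher at 24 h. Of 9 maternally expressed genes, 1 was lower and 2 higher at each of these times. Of 16 genes whose active copy varies between tissues or people, 5 were lower and 1 higher at 12 h, and 5 lower and 3 higher at 24 h. The shares of all tested genes lower and higher were 8.16% and 10.6% at 12 h, and 9.48% and 11.6% at 24 h. The 3 classes are small and were not tested against each other or against other genes.

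**Figure D2:**
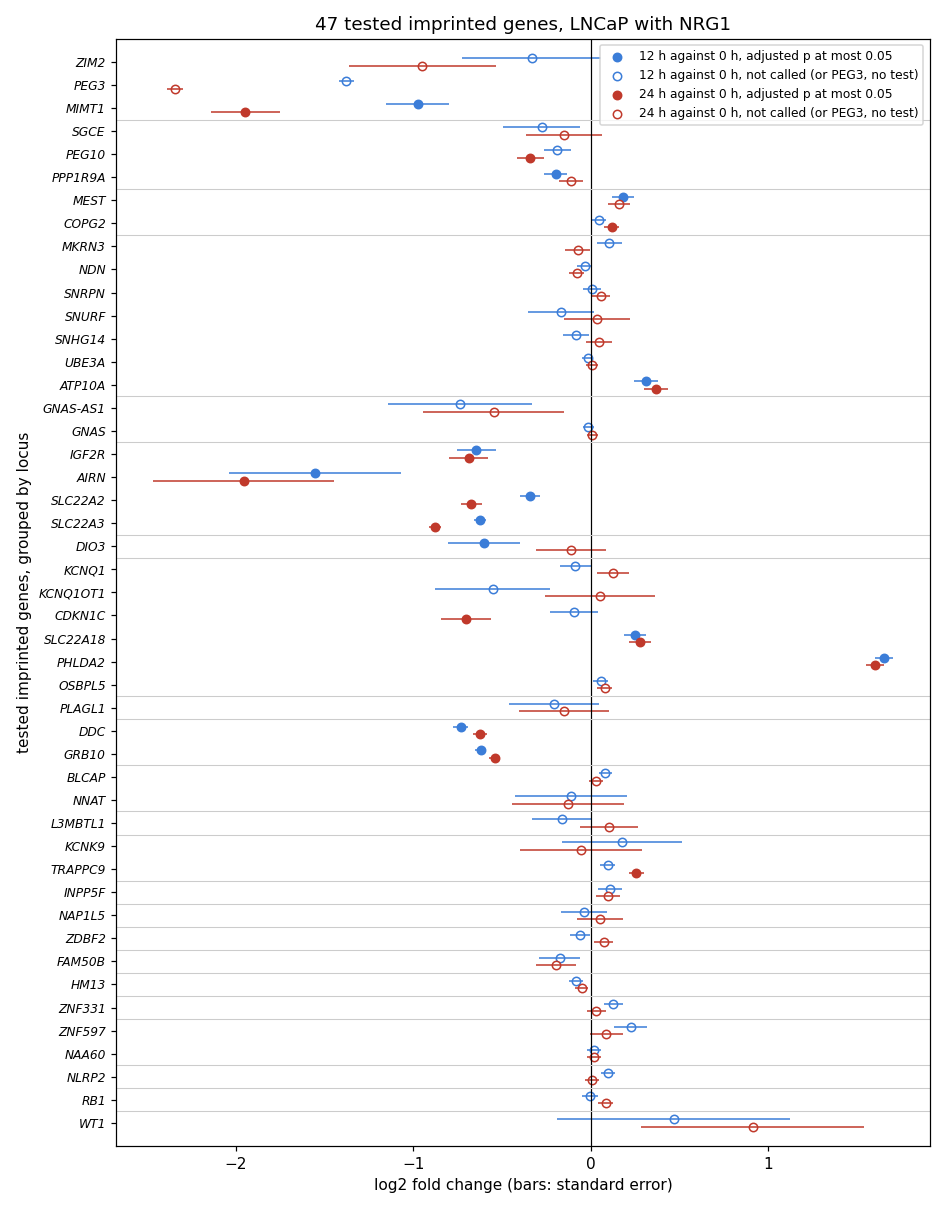
Log2 fold change (x axis, with standard errors) of the 47 tested imprinted genes (y axis, grouped by locus) at 12 h (blue) and 24 h (red) against 0 h. Filled points are genes called at an edgeR adjusted p of at most 0.05, and PEG3 is drawn open because it was not tested. Of the genes lower by 1.5-fold at 24 h, all but CDKN1C sit at the PEG3, IGF2R and GRB10 loci. PHLDA2 stands alone at 1.65 and 1.60, and no gene of the SNRPN and NDN locus was called except ATP10A.

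The IGF2R cluster on chromosome 6 held the most falling genes of the list. SLC22A3, a transporter of organic cations, had 273, 264 and 273 CPM at 0 h, 177, 173 and 176 CPM at 12 h, and 148, 140 and 153 CPM at 24 h. The times did not overlap, and SLC22A3 was lower on the log2 scale, by -0.62 at 12 h and by -0.88 at 24 h (SE 0.034 each, edgeR adjusted p = 1.41e-16 and 3.68e-21). SLC22A2, a related transporter, went from 23.2 ± 0.419 to 18.3 ± 0.850 to 14.6 ± 0.719 CPM (SD, n = 3 each), with -0.34 and -0.67. RP1-276N6.2, which overlaps SLC22A2 on the other strand, had 27440 counts against 9213, with no exon bases shared. Its own log2 fold changes were -0.10 (not called) and -0.43, so a part of the SLC22A2 reads is uncertain. AIRN, a non-coding RNA inside IGF2R on the other strand, had 118 counts over all libraries and log2 fold changes of -1.55 and -1.96 (edgeR adjusted p = 0.0206 and 0.00425). The AIRN call at 12 h was lost without 0 h replicate 2 or 3 or 12 h replicate 1 or 3 (edgeR adjusted p = 0.0635 to 0.0918). AIRN reads cannot be told from reads of IGF2R introns without strand, and IGF2R had 243853 counts.

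The fall around IGF2R took in genes that are not known to be imprinted. The window was chosen after values were seen. Of 20 other genes tested within 1 Mb of IGF2R, 9 were lower and 1 higher at 12 h, and 13 lower and 0 higher at 24 h, and from 12 h to 24 h 8 were lower and 0 higher. Among all tested genes, 8.16% were lower at 12 h, 9.48% at 24 h and 3.05% from 12 h to 24 h. The shares that were higher were 10.6%, 11.6% and 3.03%. The median log2 fold change in this window was -0.26 at 12 h and -0.46 at 24 h, against -0.0084 and -0.0068 over all tested genes. LPAL2, a pseudogene next to SLC22A3, fell from 17.4 to 10.3 to 7.71 CPM, with -0.77 and -1.18. RP11-72O9.5, which lies inside SLC22A3 on the other strand, had -0.56 and -0.93, so part of this pair's reads cannot be separated. TCP1, a chaperonin subunit, was lower at 24 h by 0.27, and ACAT2, an enzyme of acetyl-CoA metabolism, was higher by 0.18 at 12 h and lower by 0.16 at 24 h.

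**Figure D3:**
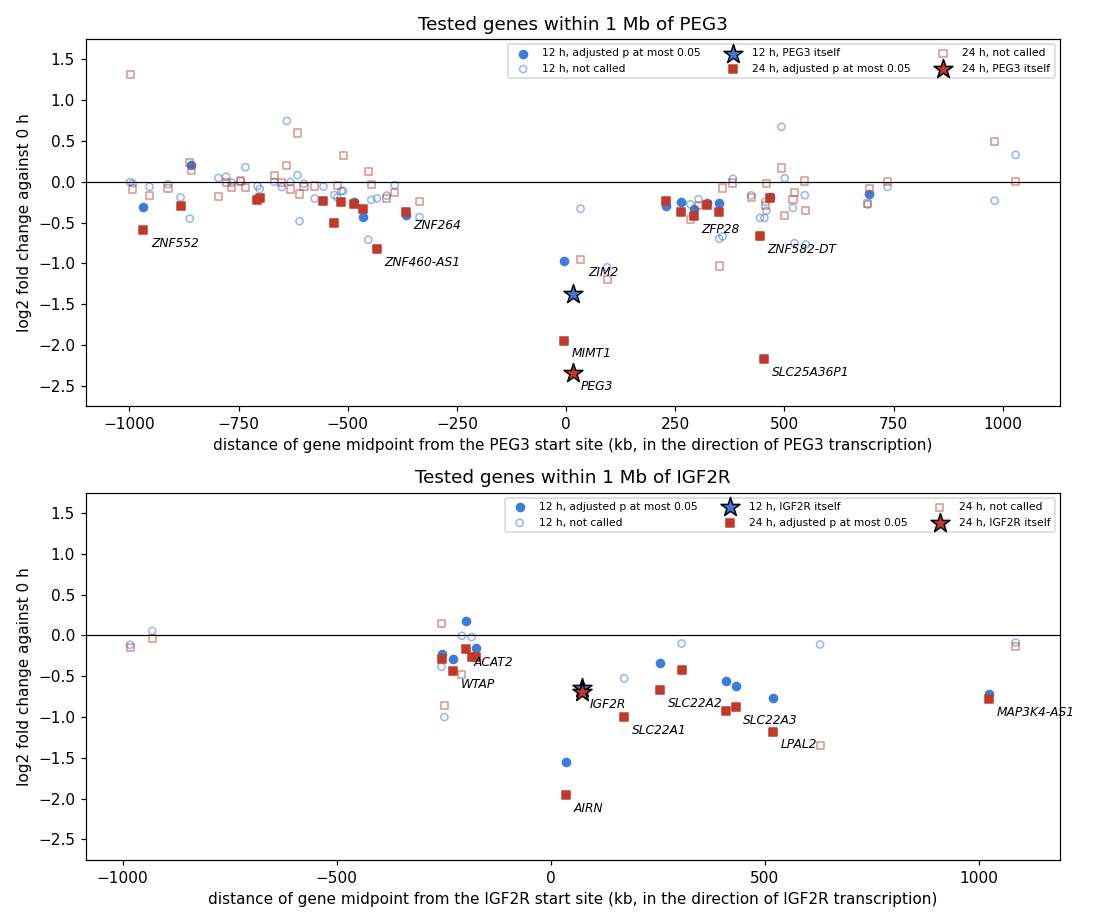
Log2 fold change against 0 h (y axis) of tested genes within 1 Mb of PEG3 (top) and IGF2R (bottom), by distance of the gene midpoint from the start site in kb (x axis). Circles are 12 h and squares 24 h, filled where the edgeR adjusted p is at most 0.05, and stars mark the central gene. PEG3 and MIMT1 stand below a band of called zinc finger genes, with the sparsely counted SLC25A36P1 (-2.18) as the one other called gene at that depth, while IGF2R lies within the range of the genes downstream of it.

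GRB10 and DDC on chromosome 7 fell together. GRB10 encodes an adaptor that binds insulin and growth factor receptors and damps their signal. GRB10 had 395, 391 and 405 CPM at 0 h, 256, 252 and 268 CPM at 12 h, and 272, 272 and 276 CPM at 24 h, so the lowest level was at 12 h. Its log2 fold changes were -0.62 and -0.54 (SE 0.032 each, edgeR adjusted p = 2.46e-17 and 6.94e-16). DDC, which makes dopamine and serotonin from their amino acid precursors, starts 24657 bases away. DDC went from 83.1 ± 1.25 to 49.98 ± 2.04 and 53.9 ± 2.18 CPM (SD, n = 3 each), with -0.73 and -0.63 (SE 0.040 each, edgeR adjusted p = 1.78e-16 and 8.25e-15). FIGNL1 overlaps DDC on the same strand and had 41.3% as many counts, with no exon bases shared.

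PHLDA2 gave the one large rise of the list. This gene of chromosome 11 is expressed from the maternal copy and restrains growth of the placenta. PHLDA2 had 15.99, 17.0 and 15.9 CPM at 0 h, 53.5, 50.5 and 49.5 CPM at 12 h, and 47.9, 51.4 and 49.0 CPM at 24 h. The later libraries did not overlap the 0 h libraries, and the log2 fold changes of PHLDA2 were 1.65 and 1.60 (SE 0.049 each, edgeR adjusted p = 1.90e-24 and 2.28e-24). SLC22A18, which is next to it and also maternally expressed, was higher by 0.25 and 0.28 (SE 0.063 each, edgeR adjusted p = 0.00372 and 0.00109). CDKN1C, a maternally expressed inhibitor of cyclin-dependent kinases in the same cluster, had 3.96 ± 0.555, 3.71 ± 0.585 and 2.43 ± 0.0667 CPM (SD, n = 3 each). CDKN1C was lower at 24 h by 0.70 (SE 0.14, edgeR adjusted p = 0.000258) and not called at 12 h.

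The other called imprinted genes changed by less than 1.5-fold, except DIO3 at 12 h. ATP10A, a lipid flippase of the chromosome 15 cluster, was higher by 0.31 and 0.37 (edgeR adjusted p = 0.000925 and 9.69e-05). TRAPPC9, a subunit of a vesicle tethering complex, was higher by 0.26 at 24 h (edgeR adjusted p = 1.38e-05). At 12 h PPP1R9A, a neighbour of PEG10, was lower by 0.20 (edgeR adjusted p = 0.0331) and DIO3, which inactivates thyroid hormone, by 0.60 (edgeR adjusted p = 0.0345). The PPP1R9A call was lost without 0 h replicate 1 (log2 value of -0.12, edgeR adjusted p = 0.281) or 12 h replicate 1 or 2, and the DIO3 call without 0 h replicate 1 or 2 or any 12 h library and with every gene that had a read (edgeR adjusted p = 0.0555). In the chromosome 15 cluster, MKRN3, SNURF, SNHG14 and UBE3A were not called in any comparison.

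Genes that keep or erase methylation at imprints changed by less than 1.5-fold where they were called. Of 12 such tested genes, 3 were lower and 1 higher at 12 h, 3 lower and 2 higher at 24 h, and 1 lower and 2 higher from 12 h to 24 h. The shares of all tested genes lower and higher were 8.16% and 10.6%, 9.48% and 11.6%, and 3.05% and 3.03% in these comparisons. TET1, which oxidises methylated cytosine, had the largest of these changes, 6.87 ± 0.973 to 4.85 ± 0.621 CPM at 24 h (SD, n = 3 each), a log2 fold change of -0.50 (edgeR adjusted p = 0.00130). TET2 had the smallest called change against 0 h, -0.14 at 24 h (edgeR adjusted p = 0.0440). UHRF1, which brings the maintenance methyltransferase to newly copied DNA, was higher by 0.31 at 24 h, and DNMT1, that enzyme, by 0.25 (edgeR adjusted p = 5.06e-05 and 2.08e-05).

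PEG3 belongs to the SCAN domain family of zinc finger proteins. Of 46 other tested members of that family, 6 were lower and 4 higher at 12 h, 9 lower and 2 higher at 24 h, and 1 lower and 1 higher from 12 h to 24 h, none by 1.5-fold. At 12 h 8.16% of all tested genes were lower and 10.6% higher, at 24 h 9.48% and 11.6%, and from 12 h to 24 h 3.05% and 3.03%. By 1.5-fold these shares were 1.38% and 0.992% at 12 h, 1.78% and 1.53% at 24 h, and 0.203% and 0.249% from 12 h to 24 h. ZSCAN31 was lower by 0.40 and 0.37 (edgeR adjusted p = 0.000442 and 0.00102). Of 6 genes for proteins known to act with or on PEG3, SIAH1, a ubiquitin ligase, was lower by 0.48 at 12 h and 0.29 at 24 h (edgeR adjusted p = 5.89e-08 and 0.000169). From 12 h to 24 h SIAH1 was higher by 0.19 (edgeR adjusted p = 0.0410), and the other 5 were not called at any time.

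Genes with a pattern like that of PEG3 were sought among those with enough reads. Among 11399 genes whose mean log2 CPM reached 2, and over 9 libraries, the genes with the highest Pearson r of log2 CPM with PEG3 included MCCC2 (0.996), ARHGAP28 (0.996), NUP93 (0.995), CHPT1 (0.994), MYNN (0.994), DSEL (0.994) and ABCB11 (0.991). In all, 140 genes had an r over 0.95. These libraries form 3 groups, and around the means of the times the r of these 7 genes ran from -0.44 to 0.71. By the size of both changes, the nearest of these 11399 genes were DSEL (-1.43 and -2.14), KCNN2 (-1.45 and -1.88), ACTRT3 (-0.89 and -1.58), OPRK1 (-1.21 and -1.39) and RLN1 (-0.93 and -1.46). DSEL, an epimerase of dermatan sulfate, went from 171 to 63.5 to 38.9 CPM. None of the genes named here is on the imprinted list. AIRN and MIMT1 were below the limit of log2 CPM, and their distances from PEG3 in the pair of changes, 0.43 and 0.57, lay between that of DSEL (0.21) and that of ACTRT3 (0.91).

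**Figure D4:**
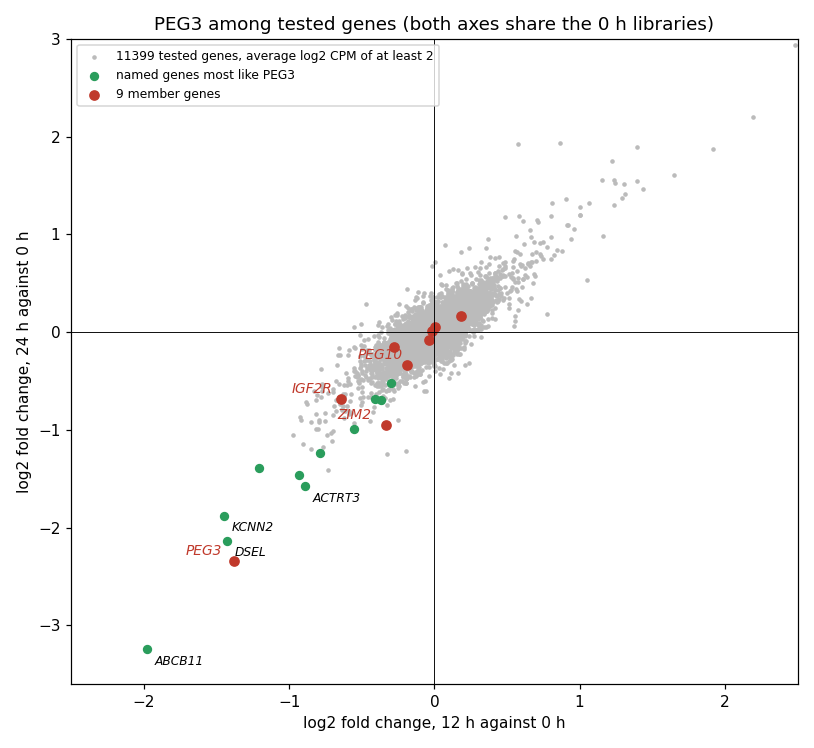
Log2 fold change at 12 h (x axis) and 24 h (y axis) against 0 h for tested genes whose mean log2 CPM reached 2 (grey), the named genes most like PEG3 (green) and the 9 member genes (red), with 6 genes outside the axes. Both axes use the same 0 h libraries. PEG3 lies at -1.38 and -2.34 beside DSEL, and the other members lie at or above -0.65 and -0.95.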

How the data were processed

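Per the study's methods, the authors trimmed reads with Cutadapt, aligned them with STAR to GRCh38 and counted them per gene with featureCounts. They left out one LNCaP time 0 replicate for quality, and the methods do not name its treatment. The study's figure legends give n = 3 for the NRG1 libraries, and 3 libraries at 0 h were analysed here. The strand setting and handling of multiply mapped reads are not given in the sources used here. The deposited values are raw counts per gene and library, not normalized. Counts carry no molecular identifiers, so depth speaks to counting error alone.

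Groups and replicate numbers came from the sample titles, and nothing says that replicates came from separate experiments beyond the word biological. Genes were kept with filterByExpr, scaled by TMM and tested with the robust quasi-likelihood fit of edgeR 4.0.16 in R 4.3.3 on all 9 libraries, with no covariate. P-values were adjusted by Benjamini-Hochberg over 19250 genes of each comparison. A gene was called at an adjusted p of at most 0.05 and was counted also with the study's fold of 1.5. Log2 fold changes are those of the fit, and CPM are on TMM-scaled totals, with SD over 3 libraries. Alternatives were DESeq2 1.42.0, median-of-ratios factors, no scaling, every gene with a read, fits on just the 6 libraries of a comparison, a block for the replicate number, each library left out, a fold of 2 and dropping genes overlapped by a gene with over 10% of their counts. These were planned for the list counts and the members, and the same fits were read for other named imprinted genes as an addition after seeing the data.

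The members and lists were chosen with earlier results of these data known, and the lists were written from general knowledge. Named genes are the members, imprinted genes called in a comparison, genes within 1 Mb of PEG3 that were called with a fold of 1.5 or overlap PEG3, the 8 genes with the highest correlation and the 5 nearest in both changes, and called list members with the largest and smallest change. Others were named after their values were seen. Some genes that meet these rules are not reported here. Exon lengths and exon overlaps used GENCODE release 44 on GRCh38 as the union of all exons, which can exceed the main transcript. Promoter windows matched 31 of 47 tested imprinted genes. Copies of close to the same sequence were looked for with BLAST 2.17.0 (at least 95% over 150 bases), which gave a match for 7 of 23 genes, among them PEG3 with ZIM2, MEST with COPG2 and SNRPN with SNURF. No pair of replicates agreed within sampling noise (chi-square per degree of freedom of 3.06 to 8.34). The fit was tested on simulated data.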

Additional observations from a re-analysis of the deposited data

Results flagged for a closer look

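The effects at 12 h and 24 h differed by the direct test between these times for 5 imprinted genes other than PEG3. The log2 fold change from 12 h to 24 h was -0.97 for MIMT1 (edgeR adjusted p = 0.00250, lower in 3 of 3 libraries), -0.61 for CDKN1C (0.00619), -0.33 for SLC22A2 (0.000406), -0.26 for SLC22A3 (2.48e-06) and 0.16 for TRAPPC9 (0.0153). SLC22A2 and SLC22A3 are each overlapped by a gene on the other strand, so a part of their reads is uncertain. The CDKN1C call was lost without 12 h replicate 1 (edgeR adjusted p = 0.0756). The TRAPPC9 call was lost without 12 h replicate 1 or 2 or 24 h replicate 1 or 2 (edgeR adjusted p = 0.0533 to 0.101).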

How the results depend on the processing

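For the 46 imprinted genes other than PEG3, the counts of called genes (13 at 12 h, 14 at 24 h and 5 from 12 h to 24 h) stayed within 1.5 times under DESeq2, other scalings, no filter and the 6 libraries compared. Dropping overlapped genes, which left 27 genes, gave 8, 8 and 3, and with the fold of 1.5 it gave 5, 4 and 2, against 8, 8 and 2. A fold of 2 left 2, 3 and 0. Leaving out a library gave 9 to 13, 14 to 15 and 3 to 6 calls, and with the fold 6 to 8, 8 to 9 and 1 to 2. The counts from 12 h to 24 h fell to 3 without 12 h replicate 1, and to 1 with the fold without 12 h replicate 1 or 3. The replicate number as a block gave 13, 14 and 5 calls. Libraries of the same number did not deviate together (r of -0.037 to 0.029), and the block changed no call of a named gene. Of 1030 values of single genes under 15 settings, 1000 were rated the same, 28 lost a call, 2 gained one and 0 called values reversed direction. The same meant the same side of the threshold or, for PEG3, which had no test, a shift smaller than the mean SD of its replicates. Values that were not called could change sign and still be rated the same. One was GNAS at 24 h, with 0.0081 in the main fit and -0.0035 as the lowest alternative. DESeq2 gave no adjusted p for AIRN in any comparison or for ZIM2 from 12 h to 24 h, and the cause of the other losses was not tested. The depth limits ZIM2 and AIRN, with as few as 5 counts in a library.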
